A study of Monodelphis domestica with 25 samples.

Results

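The 200 transcripts described here were those whose level changed least while opossum whole blood was kept in culture. The animal is Monodelphis domestica, a small marsupial used in the laboratory, here of the LSD strain. They were chosen from an untreated time course of 15 libraries by their own values. Among the 22049 features with an Ensembl transcript identifier, 3035 had a mean of at least 50 CPM (counts relative to a library total that was rescaled with TMM factors), and the 200 with the lowest coefficient of variation (CV, SD divided by mean) over the 15 libraries were taken. They were 6.59% of the 3035 and 0.907% of all identifiers. Their spread in the time course is therefore a description of how they were chosen and was not tested. Whether they kept their level was tested in a second experiment, whose libraries had no part in the choice.

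The time course held 3 libraries at each of 0, 12, 24, 48 and 72 h, labelled A0036, A0039 and A3538, of blood with no test compound, and the protocol gives a pair of dilutions for it without saying which library had which. The series' design text counts 14 of these libraries, and 15 are labelled. The treatment experiment held 10 libraries that all carry the identifier A9394 and a number from R1 to R4. Controls were 2 libraries at 12 h (R1 and R2) and 2 at 24 h (R2 and R3). PFOA (perfluorooctanoic acid) was given at 400 and 800 µM, with 1 library of each concentration at 12 h (both R2) and 1 at 24 h (both R1). GenX was given at 1200 µM in 2 libraries at 12 h (R3 and R4). These concentrations were read from the words low and high in the titles together with the protocol, which also states 0.1% DMSO for every treated and control culture, although the controls carry the label untreated. The labels do not say whether R1 to R4 were animals or wells, so a p-value here covers only the spread among these cultures, part or all of which may be technical. The GenX libraries share no number with the 12 h controls, and PFOA libraries of 12 h share none with those of 24 h. If the numbers stand for animals, those differences cannot be told apart from differences between animals.

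A reference transcript is one whose level is taken as constant, so that other transcripts can be expressed relative to it in quantitative PCR or in sequencing. Cultured whole blood is a demanding setting for such a reference, because its cells differ in lifespan and in how readily they are activated outside the body. GenX, an ammonium salt of an ether acid, was introduced as a substitute for PFOA, a fully fluorinated carboxylic acid. Both belong to the persistent surfactant-like chemicals known as PFAS.

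The files identify transcripts without gene names, and a RefSeq gene table held 0 of the identifiers. The transcripts are therefore called by identifier, their functions are not described, and markers of blood cell types could not be checked. In these bulk libraries, fewer cells of a type and less RNA per cell cannot be told apart. Total counts ranged from 51349217 to 336472834 per library in the time course, from 4487453 to 11685427 in the controls, were 6433771 and 3654215 with GenX, and ranged from 366269 to 4027470 with PFOA. The smallest total was that of 800 µM PFOA at 24 h, followed by 754708 for 400 µM PFOA at 24 h, so the main counts of the treatment experiment are also given without the former. All 200 transcripts passed the filter on low counts in the treatment experiment.

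In the time course, the mean level of the 200 transcripts ran from 50.1 to 453 CPM, with a median of 79.0 CPM. Of these, 139 lay under 100 CPM and 12 at 200 CPM or more, so the rule took few transcripts far above its own minimum. The CV ran from 5.16% to 14.4% with a median of 12.7%, where the other 2835 transcripts of at least 50 CPM had a median of 33.8%. The highest of the 15 values was 1.23 to 1.91 times the lowest, with a median of 1.59, and stayed under 1.5 times for 48 transcripts.

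The boundary of the set was not a gap. The last transcript inside, ENSMODT00000023727, had a mean of 101 CPM and a CV of 14.36%, with libraries from 73.5 to 122 CPM. The first outside, ENSMODT00000001205, had a mean of 91.1 CPM and a CV of 14.38%, with libraries from 67.1 to 116 CPM. The rule therefore separated transcripts that hardly differed in spread.

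ENSMODT00000009037 had the lowest CV of all. Its 15 libraries lay between 84.6 CPM (A3538, 72 h) and 104.5 CPM (A0039, 0 h) with a median of 97.2 CPM. Fresh blood of A0036, A0039 and A3538 had 97.2, 104.5 and 90.9 CPM and 72 h cultures had 98.2, 101 and 84.6 CPM, so values at the start and the end overlapped. ENSMODT00000017029 followed with 49.9 to 61.1 CPM (CV 6.23%), ENSMODT00000020356 with 50.9 to 66.7 CPM (7.38%) and ENSMODT00000030765 with 43.2 to 59.9 CPM (7.76%). The lowest value of the last of these came from A0036 at 0 h.

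The remaining 6 of the 10 steadiest transcripts had CVs from 7.89% to 8.63%. They were ENSMODT00000024296 (119 to 155 CPM), ENSMODT00000039776 (44.0 to 55.9 CPM), ENSMODT00000025548 (85.3 to 112 CPM), ENSMODT00000027194 (60.01 to 79.0 CPM), ENSMODT00000017885 (72.5 to 100.1 CPM) and ENSMODT00000004772 (156 to 225 CPM). The transcript with the highest mean CPM of the 200, ENSMODT00000039384, lay between 364 and 539 CPM with a mean of 453 and a CV of 8.74%. CPM are not corrected for transcript length, so levels are compared between libraries and not between transcripts.

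The low spread belonged to the scaled values on which the set was chosen. In counts relative to the plain library total, without TMM factors, their CVs ran from 28.9% to 41.7% with a median of 36.7%, and all 200 exceeded 20%. The geometric mean of the 200 was 83.7 to 92.9 CPM per library with TMM factors. Without them it went from 41.7 CPM in A3538 at 12 h to 132 CPM in A0039 at 24 h. In the same 2 libraries the 200 transcripts together held 0.939% (95% Clopper-Pearson interval 0.938 to 0.940) and 2.99% (2.99 to 2.99) of all counts, and these intervals cover counting error only. The TMM factors ranged from 0.484 to 1.47. With RLE scaling, another method that assumes most transcripts do not change, the median CV was again 12.7%.

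**Figure D1:**
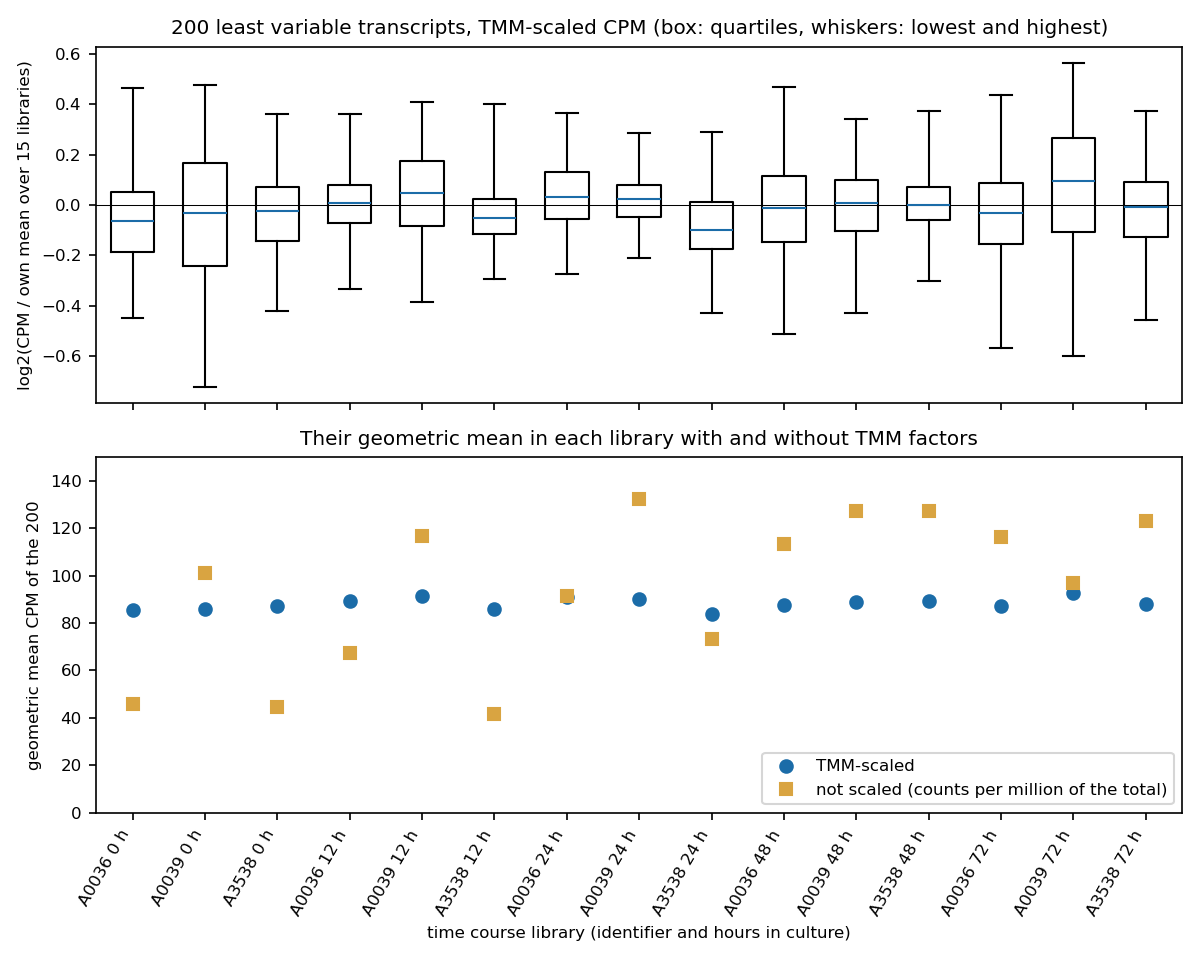
The upper panel shows, for each time course library, the log2 ratio of the 200 transcripts to their own mean over the 15 libraries (TMM-scaled CPM, box for the quartiles, whiskers for the lowest and highest transcript). The lower panel shows their geometric mean per library in CPM with TMM factors (circles, 83.7 to 92.9) and without (squares, 41.7 to 132).

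The variance of the 200 within the time course was split by time and by identifier, as a description without a test. Time in culture accounted for a median of 42.8% of a transcript's variance on the log2 scale and the identifier for 13.4%. Time had the larger share in 158 of the 200. With more times than identifiers, time takes the larger share even of random spread. The shares were not adjusted for this, so they do not show an effect of time or of the blood sample. The other transcripts of at least 50 CPM had medians of 68.0% and 8.85%. The ratio of the 72 h mean to the 0 h mean was 0.729 to 1.42 with a median of 1.05, and 144 transcripts had it within 1.2-fold. The highest time mean fell at 72 h for 70 transcripts, at 0 h for 39, and at 12, 24 and 48 h for 31, 29 and 31, while the lowest fell at 0 h for 70 and at 72 h for 48. Extremes thus sat mostly at the ends of the time course.

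Library A0039 at 72 h held the highest of the 15 values for 53 transcripts, and A0039 at 0 h held the lowest for 42. Those libraries also had the fewest transcripts within 1.2-fold of their own mean, 127 and 128 of 200, against 198 in A0039 at 24 h. Which transcripts entered the set depended on them: 133 of the 200 were chosen again when A0039 at 72 h was left out, 156 when A0039 at 0 h was, and 109 when all 5 libraries of A0039 were.

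In the treatment experiment the 200 transcripts had a lower median CV than the others of at least 50 CPM, but by a smaller margin than in the time course. The others were not matched for level here. Their median CV over the 10 libraries was 25.1%, against 30.4% for the other 2835. Without the library of 800 µM PFOA at 24 h these medians were 18.6% and 23.8%, and in the 4 controls alone they were 13.7% and 19.0%. In the 4 PFOA libraries they were 30.8% and 36.4%, and in the 2 GenX libraries 13.8% and 16.9%. Of the 200 transcripts, 141 had a CV below the median of the 3035 over all 10 libraries and 22 were among the 200 least variable there. The 200 made up 6.59% of the 3035. Across the 200, Spearman's rho between the CV in the time course and the CV in the treatment experiment was 0.051 over all 10 libraries and 0.16 over the controls. Over 3020 transcripts of at least 50 CPM it was 0.348 and 0.36. These are descriptions across transcripts that share the same libraries.

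A measure that needs no scaling between libraries also gave the 200 the lower median. For each transcript, the SD of its log2 ratio to each of the 200 was averaged, so that a low value means a constant ratio to the set. A shift shared by the 200 cancels for them and counts for the others, so a lower value does not show a steadier level. Over the treatment experiment the median was 0.504 for the 200 and 0.579 for the others, and 28.5% of the others lay below the median of the 200. Without 800 µM PFOA at 24 h the medians were 0.363 and 0.424, with 26.3% below. In the controls the medians were 0.287 and 0.340, with 31.1% below. A constant ratio to this set was thus shared by many transcripts outside it.

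Levels also differed between the experiments, whose tables were scaled separately. The mean of the 4 controls was 0.234 to 3.29 times the time course mean at 12 and 24 h, with a median of 1.60, and 143 of the 200 lay within 2-fold. For ENSMODT00000009037 the ratio was 2.26, and for ENSMODT00000039384 it was 2.18, although each was steady within the time course. For ENSMODT00000024296 it was 1.21. Of the others, 63.0% lay within 2-fold and the median ratio was 1.40.

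Compared library by library with controls of the same time, nearly all of the 200 stayed within 2-fold, except in 1 library. Each control was set against the other control of its time, and all 200 were within 2-fold at 12 and at 24 h. The 2 GenX libraries had 200 (R3) and 198 (R4) within 2-fold of the 12 h controls, with median log2 ratios of -0.070 and -0.32. With PFOA, 200 were within 2-fold at 400 µM and 199 at 800 µM at 12 h, with medians of -0.11 and -0.21, and 196 at 400 µM at 24 h, with a median of -0.20. The other transcripts of at least 50 CPM were within 2-fold in 88.5% to 99.4% of cases in these same libraries.

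The library of 800 µM PFOA at 24 h stood apart. There 103 of the 200 were within 2-fold of the 24 h controls, 90 were lower and 7 higher, the median log2 ratio was -0.83 and its SD over transcripts 1.17. Of the other transcripts of at least 50 CPM, 50.2% were within 2-fold, and the median over all transcripts tested was -0.69. The 200 had a median of 24 counts in it, 26 had fewer than 10 and 3 had none. When every library was thinned to 366269 counts, 131 of the 200 were within 2-fold there, with a median of -0.44 and an SD of 1.19. The thinned 24 h controls kept 195 and an SD of 0.445. At equal depth, the 24 h controls thus held far more of the 200 within 2-fold than this library did.

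**Figure D2:**
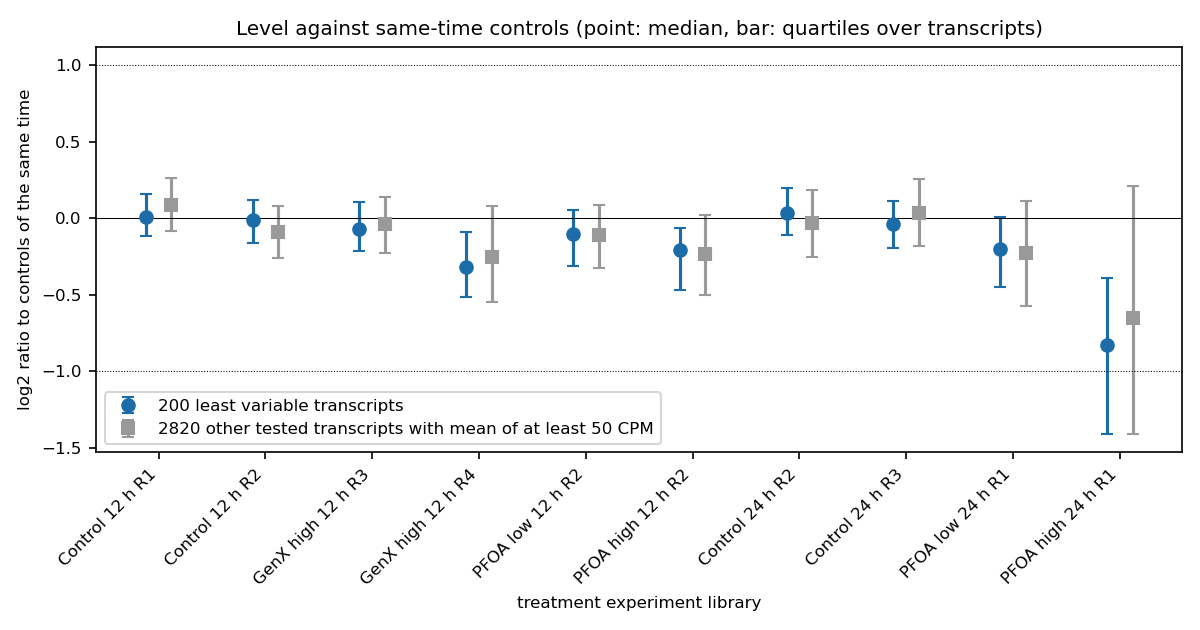
Median log2 ratio of TMM-scaled CPM to controls of the same time in each of the 10 libraries of the treatment experiment, for the 200 transcripts (circles) and the 2820 other tested transcripts of at least 50 CPM (squares); bars span the quartiles over transcripts and dotted lines mark 2-fold. The 800 µM PFOA library at 24 h has a median of -0.83 for the 200, and the other 9 libraries lie between -0.32 and 0.037.

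The 3 transcripts without a count in that library were named after their values were seen. ENSMODT00000013200 had 63.2 and 63.4 CPM in the 12 h controls and 75.9 and 50.6 CPM in the 24 h controls, where its mean corresponds to 22.3 counts at the depth of the PFOA library. If counts were independent, 0 counts would allow up to 3 counts or 8.49 CPM there, which makes it at least 7.45-fold lower. Counts were not independent, so this limit is too low and the fold is too high as a lower bound. ENSMODT00000034493 had 62.9, 53.4, 56.0 and 56.8 CPM in the same controls and, with the same limit and the same reservation, was at least 6.65-fold lower. ENSMODT00000023424 had 10.5 to 14.2 CPM in the controls, which corresponds to 4.43 counts, which is close to that limit.

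PFOA was compared with control over 4 libraries each, with time in the model. No transcript of the 200 was called by edgeR's quasi-likelihood test (adjusted p under 0.05 over all 12565 transcripts tested), where 0.0796% of all transcripts were called. The smallest adjusted p among the 200 was 0.143. At an unadjusted p under 0.05 there were 24 of the 200 (12.0%, against 15.7% of all), and DESeq2 called 8, of which 3 were higher and 5 lower (5.96% of all, 4.46% higher and 1.5% lower). Without the low-count filter edgeR called 4 (3.49% of all).

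A missing call does not show a constant level, so the intervals of the changes were counted. For 159 of the 200 (79.5%), the 95% interval of the PFOA change lay within 2-fold in either direction, against 63.8% of the 2820 other transcripts of at least 50 CPM and 33.7% of all tested. No transcript of the 200 had an interval wholly beyond 2-fold. Estimated changes ran from -0.88 to 1.62 on the log2 scale, and 199 were under 2-fold.

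Most of the 200 had estimates below control with PFOA. Their median log2 fold change was -0.21, and 161 (80.5%) were negative, where the median was -0.14 with 65.0% negative for the others of at least 50 CPM, and -0.043 with 53.0% negative for all tested. With RLE factors 149 of the 200 were negative, and with TMM factors taken without the 100 most abundant transcripts 169. Every PFOA library had a smaller total than every control. When every library was thinned to the smallest total, 120 of the 199 tested were negative, with a median of -0.085. The excess of negative estimates was thus smaller at equal depth. In the 12 h libraries alone 125 were negative (median -0.073), and in the 24 h libraries alone 149 (median -0.27). Scaling by the 200 themselves centres them by construction, so no direction can be read from it, and it moved the median of all transcripts to 0.14. The median of the 200 minus that of all transcripts was -0.17 with TMM, -0.17 with RLE factors and -0.16 when the 200 set the scale (log2). In thinned libraries it was -0.090, and without the library of 800 µM PFOA at 24 h it was -0.085. The 200 then had a median of -0.14 with 152 negative (76%), and the others of at least 50 CPM a median of -0.15 with 67.7% negative, so the median of the 200 was no longer the lower of the pair. In 27 of the 200 (13.5%), every PFOA library was below every control, against 6.73% of all transcripts and 12.3% of the others of at least 50 CPM. Without the same library the count was 28 (14%), against 8.16% and 14.1%. In 2 (1%), every PFOA library was above every control, against 1.5% and 0.993%. These counts without overlap rest on CPM with TMM factors taken over all features. The fold changes rest on factors taken over the transcripts tested. How far this difference in scaling moves the counts was not tested.

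Leaving out the library of 800 µM PFOA at 24 h gave 3 calls among the 200 by edgeR (0.876% of all tested), 1 higher (0.412%) and 2 lower (0.464%). The interval lay within 2-fold for 190 with PFOA (42.9% of all), 192 with GenX (40.6%) and 183 over time (35.3%). ENSMODT00000000343 had 532, 495, 538 and 680.3 CPM in the controls, 305 CPM (400 µM) and 285 CPM (800 µM) with PFOA at 12 h, and 379 CPM (400 µM) and 272 CPM (800 µM) at 24 h. All 4 PFOA values were below all controls. It fell by 0.72 (log2, SE 0.155, adjusted p = 0.0395, edgeR, without the library named), and its adjusted p with all libraries was 0.157. ENSMODT00000009789 had 361, 286, 365 and 459 CPM in the controls and 212, 187, 214 and 175 CPM with PFOA in the same order, again without overlap. It fell by 0.75 (SE 0.173, adjusted p = 0.0455, edgeR), against an adjusted p of 0.156 with all libraries. Both were named after their values were seen.

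The third call was ENSMODT00000019276, the transcript of the 200 with the highest CV in the treatment experiment (119%), although its CV in the time course was 13.4%. In the time course it lay between 73.3 and 119 CPM. In the controls it had 202 and 147 CPM at 12 h and 320.3 and 189 CPM at 24 h, and with GenX 195 and 156 CPM. With PFOA it had 206 CPM (400 µM) and 310 CPM (800 µM) at 12 h, and 875 CPM (400 µM) and 1808 CPM (800 µM) at 24 h. At each time, both PFOA values were above both controls, by a small margin for 400 µM at 12 h and by a wide one at 24 h. The PFOA log2 fold change over all libraries was 1.62 (95% interval 0.77 to 2.47, edgeR adjusted p = 0.143, DESeq2 adjusted p = 0.00828). It was 1.11 (SE 0.241, edgeR adjusted p = 0.0395) without 800 µM at 24 h, 0.66 (0.10 to 1.21) in the 12 h libraries alone and 2.63 (1.14 to 4.13) in the 24 h libraries alone. Neither time alone gave a call among the 200, where 0.0862% of all tested were called at 12 h and 0% at 24 h.

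GenX was compared with control at 12 h, within the model of all 10 libraries. None of the 200 was called by edgeR (0.00796% of all tested), 1 had an unadjusted p under 0.05 (6.82% of all), and DESeq2 called 0 (0.501% of all). Estimated changes ran from -0.59 to 0.72 on the log2 scale with a median of -0.13, against -0.028 for all transcripts. It was -0.12 with RLE factors and -0.17 with TMM factors taken without the 100 most abundant transcripts. The 95% interval lay within 2-fold for 153 of the 200 (76.5%), against 55.7% of the others of at least 50 CPM and 27.3% of all. This count was 85 and 81 without the 12 h control R1 or R2, and 56 and 78 without GenX R3 or R4. The controls are the same libraries as in the PFOA comparison, and the concentrations differ, so the values for PFOA and GenX stand side by side without a comparison.

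Between 12 and 24 h in the treatment experiment, 10 of the 200 changed, 2 upward and 8 downward (edgeR, 5%, against 10% of all tested and 11.6% of the others of at least 50 CPM). Of all tested, 4.9% were higher and 5.1% lower. The split was 3 up and 5 down with RLE factors (661 and 552 over all tested). It was 5 up and 5 down (636 and 424 over all tested) when the 200 set the scale, which centres them by construction. DESeq2 called 32 (21.1% of all), 13 higher (12%) and 19 lower (9.02%), and 39 had an unadjusted p under 0.05 (27.8% of all). The interval of the change lay within 2-fold for 147 (73.5%), against 57% of the others and 29.4% of all. Each 24 h library lay below each 12 h library in 22 of the 200 (11%, against 9% of all) and above in 6 (3%, against 3.3%).

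The number of calls over time rested on single libraries. It was 30 (17.7% of all tested) without 800 µM PFOA at 24 h, with 13 up (7.15%) and 17 down (10.5%). In the 4 controls alone it was 25 (18.2%), with 14 up (8.71%) and 11 down (9.52%). It was 5 and 1 without the 12 h control R1 or R2 (5.07% and 2.95% of all tested). Without the 24 h control R2 or R3 it was 5 and 2 (6.14% and 2.76%). It was 2 without 800 µM PFOA at 12 h (4.13%), and 3 without 400 µM PFOA at 24 h (6.03%) or at 12 h (3.6%). In each fit without a control library, without 800 µM PFOA at 12 h or without a 400 µM PFOA library, the share of all tested was also below the 10% called with all libraries. That share was above 10% without 800 µM PFOA at 24 h and in the controls alone.

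ENSMODT00000018136 had the smallest adjusted p. The 12 h controls had 98.6 and 85.6 CPM and the 24 h controls 40.4 and 33.7 CPM. With PFOA it had 79.2 CPM (400 µM) and 66.5 CPM (800 µM) at 12 h against 19.6 and 17.0 CPM at 24 h, and with GenX 99.5 and 81.6 CPM at 12 h. Every 24 h library was below every 12 h library, and the transcript fell by 1.49 (log2, SE 0.233, edgeR adjusted p = 0.00198). In the time course, by contrast, its 12 h values of 59.3, 74.8 and 64.8 CPM overlapped its 24 h values of 71.9, 70.2 and 60.6 CPM. Whether the change differs between the experiments was not tested.

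ENSMODT00000004891 also fell, from 64.0 and 71.9 CPM in the 12 h controls to 39.3 and 35.7 CPM in the 24 h controls. Its PFOA values were 68.6 CPM (400 µM) and 49.6 CPM (800 µM) at 12 h and 19.6 and 14.2 CPM at 24 h, and its GenX values 71.6 and 54.4 CPM. The log2 fold change was -1.12 (SE 0.255, edgeR adjusted p = 0.0151). The call ended without the 12 h control R2 (adjusted p = 0.0558), the 24 h control R3 (0.0533) or 400 µM PFOA at 24 h (0.0514). Its time course values were 48.3, 50.9 and 51.4 CPM at 12 h, overlapping 50.04, 46.7 and 47.5 CPM at 24 h.

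Upward calls over time were ENSMODT00000019276, described above, and ENSMODT00000009099. The first had a log2 fold change of 1.53 (SE 0.398, edgeR adjusted p = 0.0278) over all libraries and 0.60 (adjusted p = 0.124) in the controls alone. Its call ended without the 12 h control R2, the 24 h control R2 or either PFOA library at 12 h (adjusted p 0.0521 to 0.114). ENSMODT00000009099 had 133 and 96.4 CPM in the 12 h controls and 163 and 184 CPM in the 24 h controls, 79.1 and 103 CPM with GenX, and 105, 115, 192 and 169.8 CPM with PFOA (400 and 800 µM at 12 h, then at 24 h). All 24 h values were above all 12 h values, with a log2 fold change of 0.73 (SE 0.215, edgeR adjusted p = 0.0441). That call ended without any 1 of 8 libraries, all except 800 µM PFOA at 24 h and GenX R3 (adjusted p 0.0622 to 0.174).

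Between 800 and 400 µM PFOA, 2 libraries each, none of the 200 was called by edgeR (0.0159% of all tested), 5 had an unadjusted p under 0.05 (7.12% of all) and DESeq2 called 0 (1.12% of all). The median log2 fold change was -0.24, against -0.057 for all transcripts. The interval lay within 2-fold for 89 of the 200 (44.5%), against 35.1% of the others of at least 50 CPM and 13.5% of all, so for more than 100 of the 200 the data did not bound the difference between concentrations to 2-fold. Without 800 µM PFOA at 12 h, which leaves that concentration with its 24 h library alone, 39 were called (12.7% of all), 6 higher (4.41%) and 33 lower (8.32%). The number within 2-fold was 161 without 800 µM at 24 h, 30 without 800 µM at 12 h, 34 without 400 µM at 24 h and 14 without 400 µM at 12 h.

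**Figure D3:**
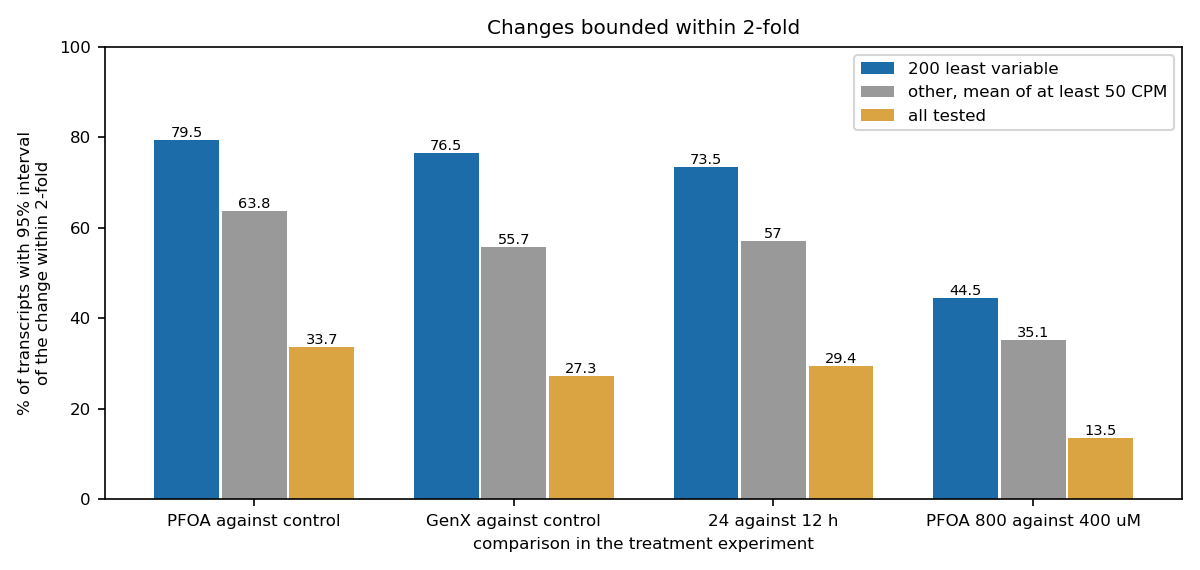
Percentage of transcripts whose 95% interval of the change lies within 2-fold in either direction, for 4 comparisons in the treatment experiment. Bars show the 200 transcripts (79.5, 76.5, 73.5 and 44.5%), the other tested transcripts of at least 50 CPM and all tested transcripts.

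For 111 of the 200 (55.5%), the intervals of the PFOA, GenX and time changes all lay within 2-fold, against 34.8% of the others of at least 50 CPM and 15.3% of all tested. Without 800 µM PFOA at 24 h the count was 172 (86%), against 58% and 25.5%. It was 52 when one or the other 12 h control was left out, 67 without the 24 h control R2, and 44 and 57 without GenX R3 or R4. The 5 whose intervals reached least far from 0 were chosen by that measure, so their values are a description. ENSMODT00000020604 had 104, 93.4, 90.1 and 89.9 CPM in the controls, 89.2 and 88.7 CPM with GenX, and 98.4, 79.8, 85.7 and 62.3 CPM with PFOA (400 and 800 µM at 12 h, then at 24 h). Its intervals reached 0.61 on the log2 scale, and its lowest value was that of 800 µM PFOA at 24 h. In the time course it lay between 42.3 and 60.9 CPM, with a CV of 11.4%.

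The next was ENSMODT00000020035, with 145 to 204 CPM in the controls, 182 and 131 CPM with GenX and 105 to 168 CPM with PFOA. ENSMODT00000014261 had 71.7 to 103 CPM in the controls, 105 and 81.6 CPM with GenX and 62.3 to 90.03 CPM with PFOA. ENSMODT00000024579 had 64.2 to 78.3 CPM, 74.7 and 60.3 CPM, and 39.6 to 74.3 CPM in the same groups. In all 3 the lowest of the 10 values was again that of 800 µM PFOA at 24 h.

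ENSMODT00000024296 was the only transcript both among the 10 steadiest of the time course and among these 5. It had 173 and 163 CPM in the 12 h controls, 145 and 139 CPM in the 24 h controls and 153 and 132 CPM with GenX. With PFOA it had 159 CPM (400 µM) and 128 CPM (800 µM) at 12 h and 132 CPM (400 µM) and 125 CPM (800 µM) at 24 h. Its CV over the 10 libraries was 11.3%, and its log2 fold changes were -0.069 (95% interval -0.48 to 0.34) with PFOA, -0.11 (-0.64 to 0.43) with GenX and -0.13 (-0.55 to 0.28) over time.

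ENSMODT00000039384 had the lowest CV of the 200 in the treatment experiment, 9.08%. Its controls were 1098, 878, 963 and 1045 CPM, its GenX libraries 883 and 847 CPM, and its PFOA libraries 855, 973, 996 and 891 CPM (400 and 800 µM at 12 h, then at 24 h). The last of these rested on 315 counts. PFOA and control values overlapped, and the PFOA log2 fold change was 0.022 (-0.44 to 0.48). That estimate came from the model, whose TMM factors were taken over the transcripts tested, so it need not match the ratio of these CPM.

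Among the leading transcripts of the time course, several departed in the library of 800 µM PFOA at 24 h. ENSMODT00000009037 had 238 and 208 CPM in the 12 h controls and 221 CPM in both 24 h controls, 216 and 205 CPM with GenX, and 235, 184, 158 and 105 CPM with PFOA in the order above. Thus 3 of the 4 PFOA libraries were below every control, and the log2 fold change was -0.29 (-0.76 to 0.19). ENSMODT00000025548 had the narrowest controls of the 10, 112, 117, 117 and 119 CPM, and 85.1, 99.6 and 122 CPM with PFOA, but 11.3 CPM from 4 counts with 800 µM at 24 h. Its PFOA interval was -1.12 to 0.37 with that library and -0.49 to 0.22 without it.

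Of the other leading transcripts, ENSMODT00000017029 had 63.8 to 74.2 CPM in the controls and 36.4 to 71.0 CPM with PFOA, with its lowest value at 800 µM and 12 h. ENSMODT00000020356 had 105 to 144 CPM and 34.0 to 131 CPM, and ENSMODT00000030765 had 108 to 130.0 CPM and 48.1 to 114 CPM, both lowest at 800 µM and 24 h. ENSMODT00000039776 had 40.3 to 54.8 CPM in the controls and 24.5 to 48.1 CPM with PFOA, and its 800 µM library at 24 h was its highest with PFOA. ENSMODT00000027194 had 122 to 202 CPM and 79.2 to 255 CPM, and ENSMODT00000017885 had 139 to 170.4 CPM and 114 to 197 CPM. Intervals for PFOA, GenX and time all lay within 2-fold for 6 of the 10 leading transcripts, and the exceptions were ENSMODT00000020356, ENSMODT00000025548, ENSMODT00000027194 and ENSMODT00000004772. Without 800 µM PFOA at 24 h this held for all 10, and without the 12 h control R2 or GenX R4 for 3.

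**Figure D4:**
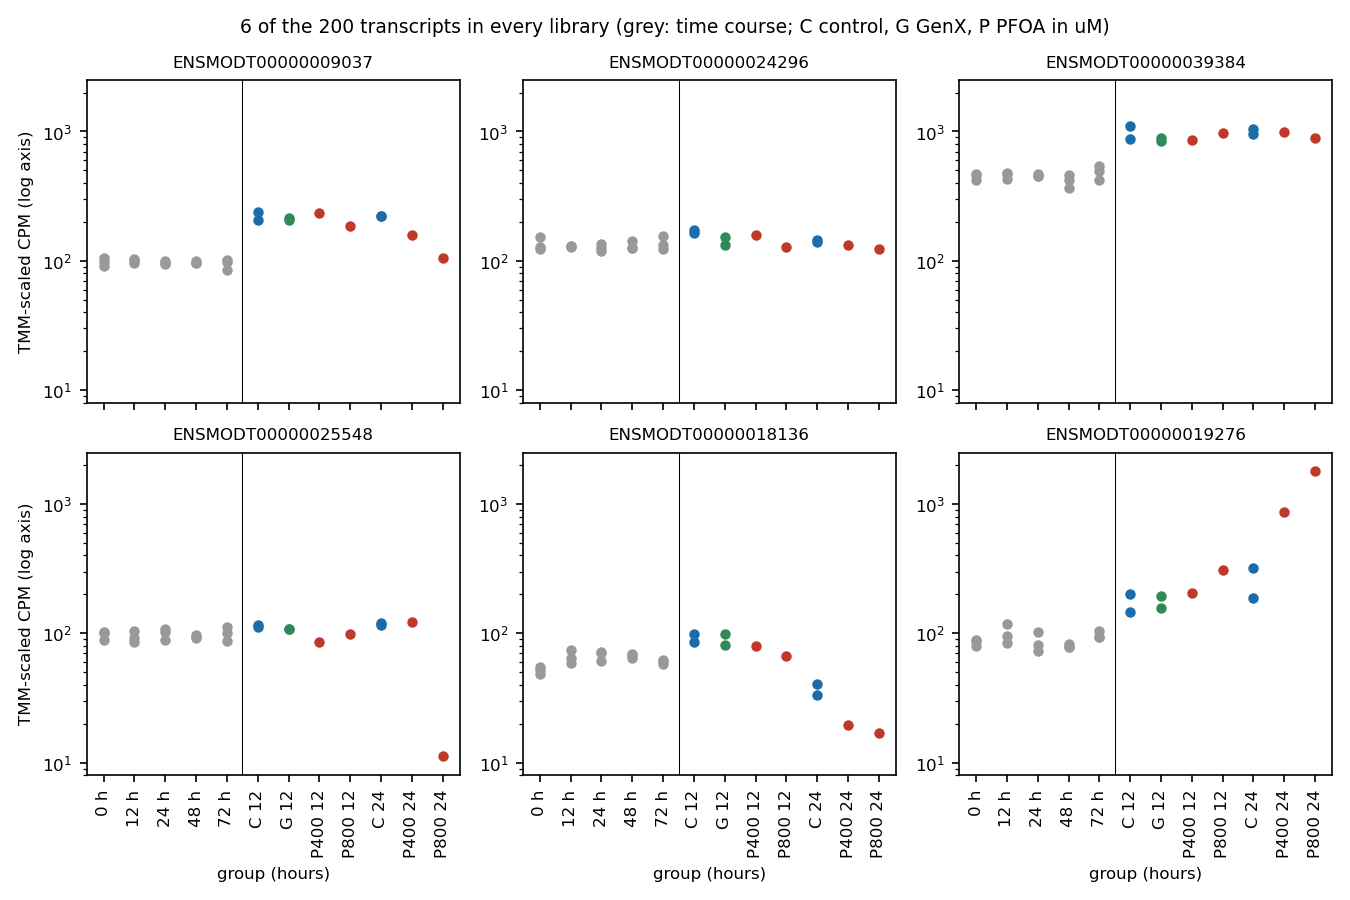
TMM-scaled CPM (log axis) of 6 of the 200 transcripts in all 25 libraries, with time course libraries in grey and, right of the vertical line, control (blue), GenX (green) and PFOA (red) libraries by concentration and hours. The tables were scaled separately; ENSMODT00000024296 and ENSMODT00000039384 stay level among the treatment libraries, ENSMODT00000018136 is lower at 24 h, and ENSMODT00000019276 reaches 1808 CPM at 800 µM PFOA and 24 h.

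The set was also compared with other transcripts within ranges of mean CPM in the time course. Levels in the treatment experiment were not matched. Among the 12 of the 200 with a mean of at least 200 CPM, all had the PFOA interval within 2-fold, against 62.6% of the 570 others of at least 200 CPM. That range has no upper end: the set reached 453 CPM and the transcripts outside it 214000 CPM, so levels there were not alike. Between 100 and 200 CPM the percentages were 63.3% of 49 and 65.4%, between 75 and 100 CPM 84.0% of 50 and 64.3%, and between 50 and 75 CPM 83.1% of 89 and 63.0%. The set thus had the higher percentage in 3 of the 4 ranges for PFOA. For GenX and for time it had the higher percentage in all 4, among them 67.3% against 58.1% and 69.4% against 56.6% between 100 and 200 CPM. Without 800 µM PFOA at 24 h it was higher in all 4 ranges for PFOA as well, with 89.8% against 83.2% between 100 and 200 CPM.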

How the data were processed

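The values are the authors' deposited counts of reads for each transcript, 1 table per experiment, in whole numbers and without normalization. The submitters' processing notes name bedtools 2.30.0, Bowtie2, edgeR, FastQC 11.5, R 4.1.2, TopHat2 2.1.1 and Trimmomatic 0.36. Sources used here do not give the genome build, the annotation release or the use of strand in counting, so overlapping, antisense or near-identical transcripts are uncertain. Of 22063 features, 4 upper-case copies of other names were removed, which left 22059. Even numbers made up 71% (time course) and 70.9% (treatment experiment) of the values from 1 to 12, so counts were not independent and intervals or floors from counts (3 counts for a count of 0) cover counting error only and are too narrow.

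The set was chosen on TMM-scaled CPM over all features. The CPM given for single libraries of the treatment experiment were scaled in the same way, with factors of that experiment. Treatment contrasts used edgeR 4.0.16 (limma 3.58.1, R 4.3.3): quasi-likelihood F test on the counts, filterByExpr on the groups of treatment and time (minimum count 10), TMM on the remaining 12565 transcripts, treatment and time as terms of 1 model over 10 libraries, Benjamini-Hochberg adjustment over all tested, called under 0.05. The concentration contrast replaced treatment by treatment and concentration. Intervals are 95% and were derived from the log2 fold change and its F value. DESeq2 1.42.0 was an alternative. Log2 ratios of single libraries used a pseudocount of 0.5 CPM. Scripts were tested on simulated data.

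The set, its rule and the lists were chosen with earlier results of these data known. The transcripts named are the 10 with the lowest CV, those at ranks 200 and 201, the one with the highest mean CPM, at most 2 called in each direction per contrast, and the 5 whose intervals reach least far from 0; others are said to have been named after their values were seen. Alternatives were RLE factors, scaling by the 200, TMM without the 100 most abundant transcripts, no filter, DESeq2, thinning to 366269 counts, the number R1 to R4 as a block, each library left out, each time alone, the controls alone, and other forms of the selection rule. No transcript sequence was used here.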

Additional observations from a re-analysis of the deposited data

Results flagged for a closer look

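In 2 of 42 groups of 4 libraries checked (controls and PFOA libraries of the named transcripts), 1 library lay far from the others, where chance gives about 1 in 20. Both cases were the library of 800 µM PFOA at 24 h. ENSMODT00000004772 had 73.6 CPM there, from 26 counts, and 249 to 283 CPM in the other PFOA libraries, so that the gap was 0.836 of the whole range, just above the 95% critical value for 4 libraries. ENSMODT00000023727, the last transcript inside the set, had 42.4 CPM there, from 15 counts, and 111 to 125 CPM in the others, with a gap of 0.835 of the range.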

How the results depend on the processing

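Of the 200 transcripts, the number called with PFOA was 4 without the low-count filter (3.49% of all tested) and 8 with DESeq2 (5.96%). It was 0 to 3 (0.00741% to 0.876% of all tested) when single libraries were left out. The number within 2-fold with PFOA was then 110 to 190. For GenX no alternative gave a call, and the number within 2-fold was 56 to 192 with libraries left out. Over time, calls were 32 with DESeq2 (21.1% of all tested), 4 in libraries thinned to the smallest total (4.59%) and 25 in the controls alone (18.2%). With libraries left out they were 1 to 30 (2.76% to 17.7% of all tested), and the number within 2-fold was 119 to 183. For 800 against 400 µM PFOA, calls were 0 to 39 and the number within 2-fold 14 to 161 with libraries left out, and 58 without the filter. With the number R1 to R4 as a block, 0 of the 200 were within 2-fold for GenX. Over time 0 were called (0.334% of all tested), and the edgeR adjusted p of ENSMODT00000018136 was 0.0796. The number with all 3 intervals within 2-fold, an alternative set added after seeing the data, was 71 without the filter, 72 in thinned libraries, 0 with the block and 44 to 172 with libraries left out. The numbers R1 to R4 were not shown to pair the libraries. Residuals of libraries with the same number and another treatment had a mean correlation of -0.056 over 9 pairs (-0.86 to 0.567). Those with another number had -0.044 over 27 (-0.598 to 0.527). Here 400 and 800 µM PFOA counted as different treatments. Residuals of the same fit are not independent, so these means cannot settle whether the numbers pair libraries. Of the 200, 24 were chosen again on CPM without TMM factors, 100 with a minimum mean of 20 CPM, 61 with a minimum of 100 CPM, 119 without the 0 h libraries, and 109 to 195 when a library or an identifier was left out. The median CV in the treatment experiment was 18.6 to 26.5% with libraries left out. The time log2 fold changes of the transcripts named as called over time kept their sign in all 18 alternatives. Other estimates were not checked in this way. The PFOA estimate of ENSMODT00000018136, which was not called, went from -0.465 to 0.0855 in thinned libraries. Depth limits the library of 800 µM PFOA at 24 h most, where a count of 0 allows up to 8.49 CPM if counts are taken as independent.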
